A study of Mus musculus with 21 samples.

Results

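The levels of 5 long noncoding RNAs grouped as nuclear were followed through total and ribosome-bound RNA of embryonic mouse forebrain and kidney. They were Malat1, Neat1, Miat, Sox2ot and Rmst, and their location in the cell was not measured. The members are the 5 rows with these symbols among the 23827 rows of each expression file, and each symbol had 1 row. The 21 libraries formed 7 groups of 3, all from embryonic day 14.5 embryos that carried Gt(ROSA)26Sor-mCherry-Rpl10a+/-, an allele from 1 targeted embryonic stem cell clone that makes an mCherry-tagged ribosomal protein in cells with active Cre. With Sox2Cre+/-, which recombines in all cells of the embryo proper, total RNA (the transcriptome) and RNA pulled down with tagged ribosomes by translating ribosome affinity purification, TRAP (the translatome), were sequenced from forebrain and from kidney. With Cdh5CreERT2+/-, a tamoxifen-dependent Cre under the endothelial Cdh5 promoter, embryos were exposed to tamoxifen given to the dam by gavage, and the pulled-down RNA of brain endothelial cells (brain EC) and kidney endothelial cells (kidney EC) was sequenced. With Emx1Cre+/-, which marks the dorsal telencephalon lineage, the pulled-down RNA of forebrain was sequenced (Emx1-lineage). Each library came from pooled organs, the forebrain dissection held part of the diencephalon, and same-numbered transcriptome and translatome libraries came from the same tissue sample. Total RNA was purified from extract cleared by centrifugation, so RNA in pelleted nuclei could be missing from it. All libraries were made with poly(A) selection.

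Long noncoding RNAs are transcribed and processed much like mRNAs but do not have a long conserved reading frame, and many stay in the nucleus, away from the cytoplasmic ribosomes. Malat1 is an abundant RNA of nuclear speckles, the bodies that store splicing factors. Neat1 is the scaffold of paraspeckles. Miat, also called Gomafu, forms its own nuclear domain in neurons and carries repeats like the branch point sequence that the splicing factor Sf1 binds. Sox2ot is transcribed across the gene of Sox2, a factor that keeps neural progenitors, and Rmst is a neural RNA known as a partner of the Sox2 protein.

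The 5 genes lie on 4 chromosomes of GRCm38, and GENCODE vM21 gives them no coding transcript. Malat1 (chr19:5795690-5802672, minus strand) is a single exon of 6983 bases. Neat1 (chr19:5824708-5845478, minus strand) lies nearby on the same chromosome and strand. Its row covers only a short part of the gene, since the row's effective length was 3203 bases and the gene spans 20771. Reads of its short and long forms are not told apart in this row. Miat (chr5:112213228-112229395, minus strand) has 7 exons and 8758 spliced bases, Sox2ot (chr3:34104270-34682619, plus strand) 5 exons and 2970 bases, and Rmst (chr10:92071037-92165170, minus strand) 13 exons and 2679 bases in the transcript matched to the row. The longest reading frame from an ATG holds 64 codons in Malat1, 79 in Neat1, 179 in Miat, 106 in Sox2ot and 71 in Rmst. The frame of Miat is thus the longest of the 5.

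Sequences of GENCODE vM21 transcripts are given 5′ to 3′ in the RNA sense for the features on which the members differ. The 3′ region of Malat1 (chr19:5795928-5796087) is shown because this RNA ends in a triple helix in place of a poly(A) tail. The capitals mark a U-rich motif (written with T) and a run of A in the genomic A tract. Bases further on belong to a tRNA-like RNA that is cut off.
Malat1 3′ region: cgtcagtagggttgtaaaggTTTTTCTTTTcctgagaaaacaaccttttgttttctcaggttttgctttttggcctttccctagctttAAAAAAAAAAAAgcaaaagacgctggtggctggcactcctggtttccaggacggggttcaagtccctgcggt
The first Miat cluster (chr5:112217304-112217465) and the second (chr5:112216747-112216817) are shown because each holds 3 copies of TACTAAC, the repeat read by Sf1, in capitals.
Miat cluster 1: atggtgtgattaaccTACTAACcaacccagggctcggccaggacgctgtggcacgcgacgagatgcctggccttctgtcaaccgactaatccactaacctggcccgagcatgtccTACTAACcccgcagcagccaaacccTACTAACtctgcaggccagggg
Miat cluster 2: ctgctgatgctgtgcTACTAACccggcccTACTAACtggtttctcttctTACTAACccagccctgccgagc
The start of the longest reading frame is shown for Sox2ot (chr3:34638480-34638599) and for Rmst (chr10:92135026-92135766, across 2 exons), the 2 members whose level in ribosome-bound RNA was near that in total RNA; the capitals mark the ATG.
Sox2ot: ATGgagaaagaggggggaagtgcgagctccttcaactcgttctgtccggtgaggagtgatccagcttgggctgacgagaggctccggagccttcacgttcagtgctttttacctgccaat
Rmst: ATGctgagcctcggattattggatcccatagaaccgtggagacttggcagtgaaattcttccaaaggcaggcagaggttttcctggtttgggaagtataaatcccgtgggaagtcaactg
The 7 letters TACTAAC were searched on both strands of the 5 transcripts, and do not overlap another motif searched. Miat held 6 on the sense strand and 0 on the other, Rmst 1 on the antisense strand, and Malat1, Neat1 and Sox2ot none. Among the 76 long noncoding transcripts whose length was within 25% of that of Miat, 19.7% held at least 1 sense copy, and the 2 that held at least 6 were both transcripts of Miat.

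Between 21760652 and 79231692 reads were counted per library, with the kidney translatome the shallowest. The 12 endothelial markers summed to 4083 to 4244 RPKM (reads scaled by transcript length and library size) in brain EC against 218.3 to 244 in the brain translatome, and to 2683 to 3183 in kidney EC against 496.2 to 533.7 in the kidney translatome, so the endothelial groups carried their defining markers. In the Emx1-lineage, the 5 dorsal telencephalon markers summed to 1085 to 1159 RPKM against 515.7 to 537.2 in the brain translatome. EC and Emx1 libraries were each sequenced in runs of their own, so in the comparisons of these groups with whole-organ RNA the run and the group cannot be told apart.

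In brain, Malat1, Neat1 and Miat were far lower in ribosome-bound RNA than in total RNA, whereas Sox2ot and Rmst stood near their level in total RNA. The mean of Miat in the brain translatome, 4.20 RPKM, was still near that of Rmst, 4.26 RPKM. Of the 5 members, 3 were lower in the brain translatome than in the brain transcriptome at an adjusted p under 0.001 in edgeR's quasi-likelihood test, against 18.5% of all 19446 rows tested. The median log2 fold change was -4.27 over the members and -0.01 over all rows. Fold changes are translatome over transcriptome on the scale of composition-corrected (TMM) counts, and levels are the deposited RPKM values.

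**Figure D1:**
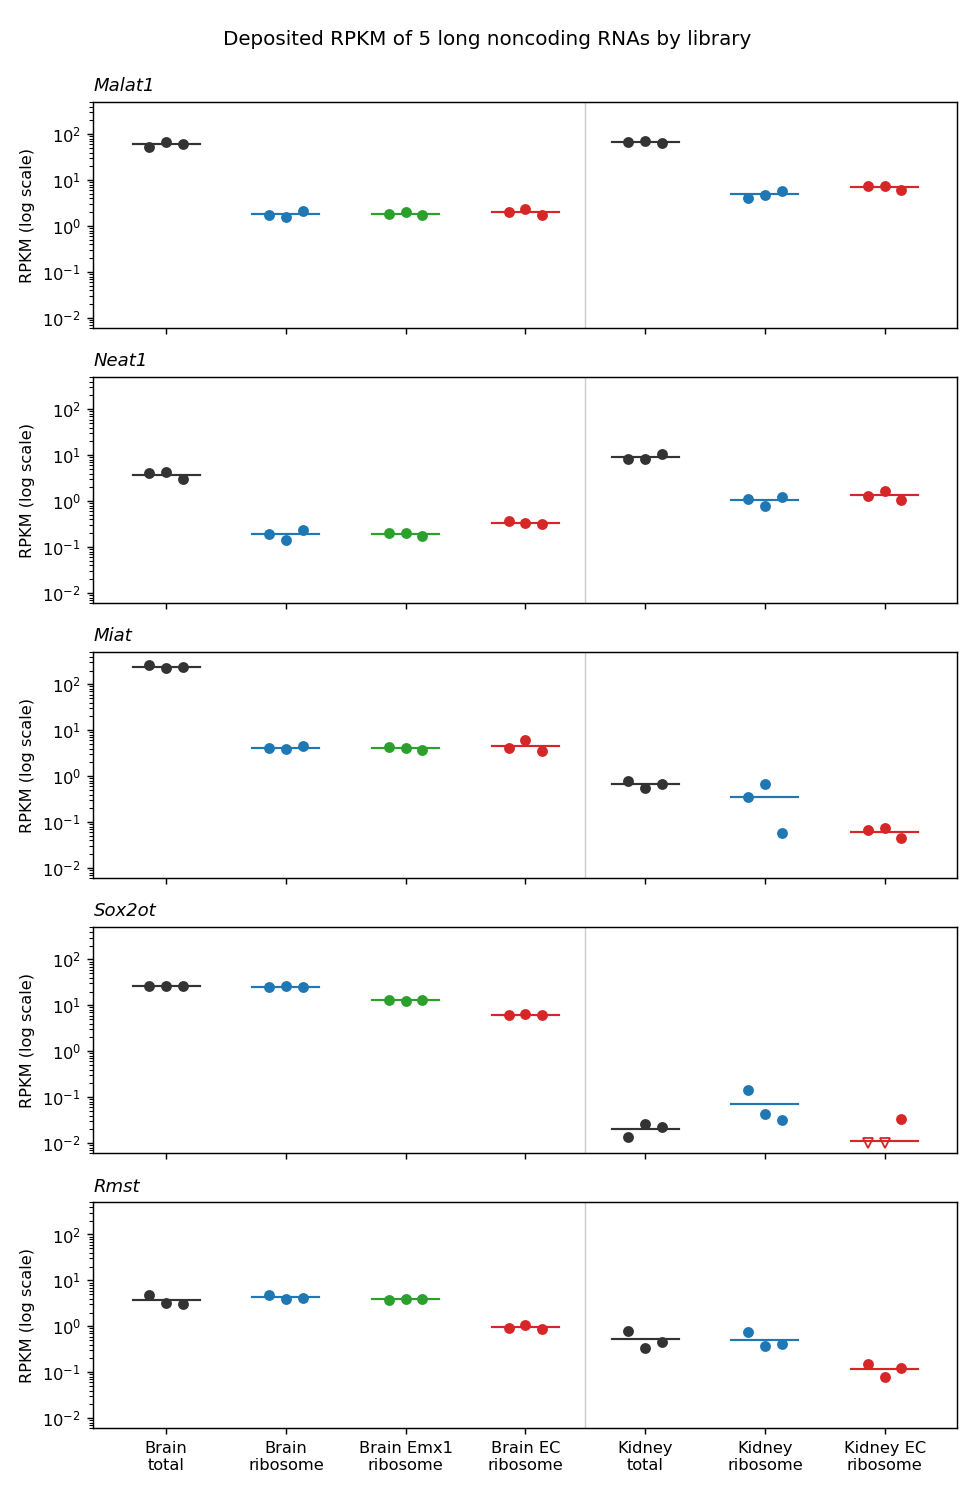
Deposited RPKM (log scale) of each member in the 21 libraries; points are libraries in the order 1 to 3 within a group, lines are group means, and open triangles mark libraries with 0 reads. Malat1, Neat1 and Miat drop from total to ribosome-bound RNA in brain, while Sox2ot and Rmst stay level and are lower in the brain EC libraries.

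Among the members, Miat had the highest RPKM in brain total RNA, at 262.6, 226.2 and 236.1 in libraries 1, 2 and 3. Whether this rank holds in whole cells cannot be told, since RNA in pelleted nuclei could be missing and Malat1 lacks a poly(A) tail. Miat stood at 4.06, 3.98 and 4.56 RPKM in the brain translatome libraries. Every translatome library was far below every transcriptome library. The fold change was -5.82 ± 0.09 on the log2 scale (SE, n = 3 and 3, adjusted p = 2.37e-14), a 56.4-fold lower level, and 1.74% ± 0.13 of the transcriptome RPKM was left (SD, n = 3).

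Malat1 was at 53.6, 68.2 and 62.5 RPKM in the brain transcriptome and at 1.72, 1.58 and 2.14 RPKM in the brain translatome. The groups did not overlap, and the log2 fold change was -5.05 ± 0.12 (adjusted p = 1.39e-12), a 33.2-fold lower level. Neat1, a weaker RNA of the same chromosome, was at 4.12, 4.22 and 3.00 RPKM in total and at 0.193, 0.144 and 0.234 RPKM in ribosome-bound RNA, the latter from 14 to 28 reads a library. Its log2 fold change was -4.27 ± 0.19 (adjusted p = 4.28e-10), and the groups again did not overlap. Of the transcriptome RPKM, 2.96% ± 0.47 of Malat1 and 5.04% ± 1.19 of Neat1 was found in the translatome.

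Sox2ot behaved otherwise. The brain transcriptome libraries held 26.3, 26.9 and 26.5 RPKM and the translatome libraries 24.6, 26.5 and 25.2 RPKM. The ranges overlapped, and the log2 fold change of -0.03 ± 0.05 did not pass the test (adjusted p = 0.584), with a 95% interval from -0.13 to 0.06. The Sox2 mRNA, whose gene lies in an intron of the Sox2ot transcript, was at a mean of 103.7 RPKM in the translatome and 94.2 RPKM in the transcriptome (log2 fold change 0.17 ± 0.05, adjusted p = 0.0141, not called).

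Rmst was at 4.71, 3.26 and 3.03 RPKM in the brain transcriptome and at 4.71, 3.91 and 4.14 RPKM in the translatome. The ranges overlapped, and the log2 fold change was 0.25 ± 0.14 (adjusted p = 0.159, 95% interval -0.03 to 0.54). Within tissue samples, the translatome held 100.1%, 120% and 136.6% of the transcriptome RPKM of Rmst, and 93.6%, 98.6% and 94.97% of that of Sox2ot.

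All 3 brain translatome libraries and transcriptome library 1 were sequenced in the same run, which allows the comparison within that run. The log2 ratios of RPKM there were -5.97 for Miat, -4.88 for Malat1, -4.43 for Neat1, -0.05 for Sox2ot and -0.15 for Rmst. The sign of the small difference in Rmst thus turned within the run, and the other 4 kept their direction. Red blood cell markers also moved between the groups, with a summed level of 185.7 to 428.6 RPKM in total RNA against 98.5 to 191.7 in the pull-down. Hba-a1 had 0 reads in all 7 groups, which does not tell an unexpressed gene from uncounted reads. The part of red blood cells in the members' differences was not tested.

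In kidney, Malat1 and Neat1 were again low in ribosome-bound RNA. Of the 5 members, 2 were lower in the kidney translatome at the same threshold, against 15.8% of 19336 rows. The median log2 fold change was -0.88 over the members and -0.03 over all rows. The member median is the value of Miat, and it counts Sox2ot, which was at the limit of detection in kidney. Malat1 was at 68.2, 72.2 and 63.2 RPKM in total RNA and at 4.17, 4.76 and 5.89 RPKM in ribosome-bound RNA. The groups were far apart, with a log2 fold change of -3.78 ± 0.11 (adjusted p = 1.14e-08, 13.8-fold lower). Neat1 was at 8.19, 8.33 and 10.9 RPKM in total and at 1.13, 0.80 and 1.25 RPKM in ribosome-bound RNA. Its groups did not overlap either, and the log2 fold change was -3.10 ± 0.17 (adjusted p = 2.28e-07, 8.59-fold lower). The share of the transcriptome RPKM in the translatome was 7.28% ± 1.28 for Malat1 and 11.6% ± 2.55 for Neat1. Translatome library 3 shared its run with the 3 kidney transcriptome libraries, and within that run the log2 ratios were -3.53 for Malat1 and -2.87 for Neat1.

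Miat was a rare RNA in kidney, and its ribosome-bound level varied more than 10-fold between libraries. The transcriptome held 0.769, 0.556 and 0.671 RPKM (182 to 341 reads). The translatome held 0.352, 0.666 and 0.0582 RPKM, from 75, 137 and 11 reads. Translatome library 3 lay far below total RNA and library 2 within its range, so the groups overlapped. The log2 fold change was -0.88 ± 0.50 (adjusted p = 0.180). It was -1.66 ± 0.48 without translatome library 2 (adjusted p = 0.0184) and -0.39 ± 0.26 without library 3 (adjusted p = 0.262). With the tissue sample as a block the value was -0.89 with an adjusted p of 5.50e-13, a call from a fit whose prior degrees of freedom were infinite, so that the spread of this row was not used. DESeq2 gave an adjusted p of 0.409. Libraries 1 and 2 were sequenced in a run with 2 brain transcriptome libraries and library 3 was not. The 7 neuron markers summed to 21.4, 25.8 and 18.2 RPKM in translatome libraries 1, 2 and 3. Neurod2 and Neurod6, dorsal telencephalon markers, had no reads in kidney total RNA or kidney EC, but had some in the kidney translatome. The part of the run or of neuronal RNA in this spread was not tested.

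Rmst was equally rare in kidney, with 0.790, 0.331 and 0.466 RPKM in total RNA and 0.746, 0.378 and 0.412 RPKM in the translatome. Tissue sample 1 was the highest in both. The log2 fold change was -0.06 ± 0.36 (adjusted p = 0.907), with a 95% interval from -0.77 to 0.65. Sox2ot was at the limit of detection in kidney, with 26 reads in all 9 kidney libraries and 10 reads at most in a single library, so no fold is given for it there.

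**Figure D2:**
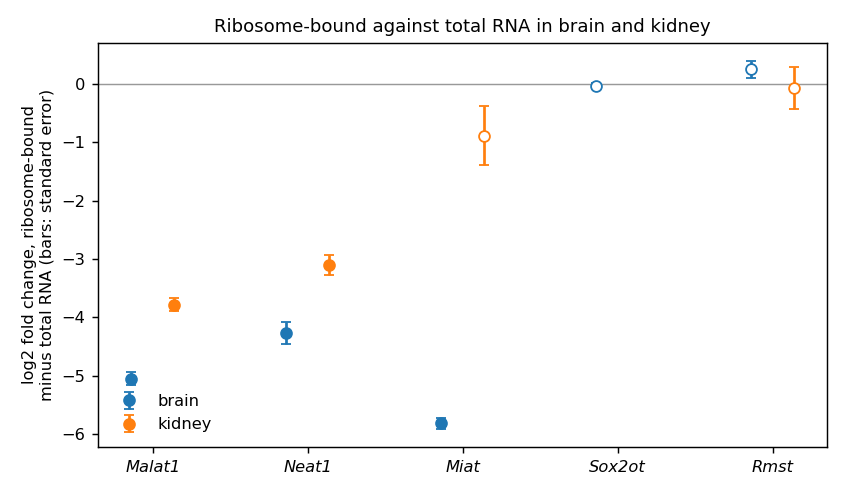
Log2 fold change of ribosome-bound over total RNA (edgeR, bars show the standard error) in brain and kidney; filled points passed an adjusted p under 0.001 and open points did not. The Malat1 and Neat1 points lie further below 0 in brain than in kidney, a difference that passed its test for Malat1 and not for Neat1, and Sox2ot is not drawn for kidney, where it had 2 to 10 reads a library.

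Whether the ratio of ribosome-bound to total RNA differed between the organs was tested as an interaction over the 12 Sox2Cre libraries. Of the members, 2 passed, both with a lower ratio in brain, against 4.12% of 20108 rows. For Malat1 the log2 ratio was lower in brain by -1.29 ± 0.17 (adjusted p = 6.57e-05). For Miat it was lower by -4.96 ± 0.48 (adjusted p = 4.20e-06), and it stayed past the threshold without each library in turn, between -5.44 without kidney translatome library 3 and -4.19 without library 2. Leaving out single libraries does not remove the run that kidney translatome libraries 1 and 2 shared with brain transcriptome libraries, and from the within-run ratios (-5.97 in brain, and -3.52 in kidney from 1 translatome library) the difference was -2.45, with no test. The part of the run in the larger value was not tested. Neat1 differed by a like amount, -1.19 ± 0.29, but did not pass (adjusted p = 0.00799); it passed with the tissue sample as a block (-1.20, adjusted p = 4.04e-05) and with DESeq2 (adjusted p = 0.000705). Rmst did not differ detectably (0.30 ± 0.40, adjusted p = 0.692). Among the listed neuron and telencephalon markers, Neurod6 (-7.18 ± 1.21, adjusted p = 7.64e-04) and Gad2 (-6.10 ± 0.94, adjusted p = 2.43e-04) also passed with a lower ratio in brain. Emx1 (0.50), Dlx5 (0.12) and Chd5 (0.89) had a higher ratio in brain and did not pass. What these markers share with Miat was not tested. In bulk samples like these, fewer cells of a type and less RNA per cell cannot be told apart, so a ratio over a whole organ need not hold in each cell type.

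In total RNA, 3 members were higher in brain than in kidney, against 27.2% of 19841 rows, and 1 was lower, against 26.3%. Miat was higher by 8.69 ± 0.15 on the log2 scale (adjusted p = 3.43e-12). The summed reads of Sox2ot were 11576 in the brain and 7 in the kidney transcriptome, a depth-corrected ratio of 1351 with a 95% counting interval from 655.5 to 3361. Rmst was 7.65-fold higher in brain (adjusted p = 2.39e-06). Neat1 was 2.12-fold lower in brain (adjusted p = 3.34e-05). Malat1, expressed in nearly every cell type, did not differ (0.04 ± 0.09, adjusted p = 0.660, 95% interval -0.12 to 0.21), and its sign turned to -0.14 with total counts.

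Compared with other RNAs, the depletion of Malat1, Neat1 and Miat in brain was in the far tail. Of the 402 noncoding rows, small RNAs left out, with a mean of at least 1 RPKM over the 6 brain libraries, 27 (6.72%) had a log2 fold change below -3, and 29 of 12351 mRNA rows (0.235%) did. The median was 0.16 for these noncoding rows and 0.04 for mRNA rows, and of the noncoding rows 24.1% were lower and 24.4% higher at the threshold. In kidney 17 of 378 noncoding rows (4.50%) and 11 of 12341 mRNA rows (0.0891%) lay below -3.

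**Figure D3:**
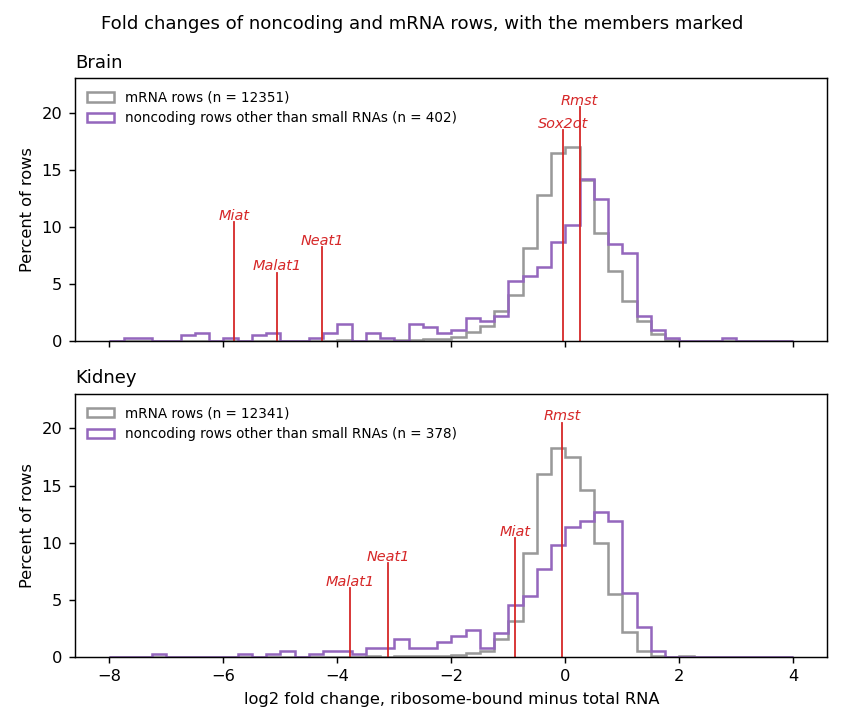
Distribution of log2 fold changes of ribosome-bound over total RNA for mRNA rows and noncoding rows with a mean of at least 1 RPKM, as percent of rows in bins of equal width, with the members marked by vertical lines of arbitrary height. Malat1 and Neat1 lie in the left tail in both organs and Miat does in brain; Miat and Rmst in kidney are below the minimum level and are marked for reference only.

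A list of 20 other nuclear or chromatin-associated long noncoding RNAs gave 13 tested rows in brain, of which 5 were lower and 1 higher, against 18.5% and 18.6% of all rows. Meg3, Rian and Mirg, maternally expressed RNAs of the imprinted Dlk1-Dio3 locus, fell by 6.47, 3.32 and 5.14 on the log2 scale, and Kcnq1ot1, an antisense RNA that silences imprinted genes, fell by 2.64. Six3os1, the partner RNA of the Six3 gene, fell by only 0.38 (adjusted p = 1.21e-04). Peg13 rose by 0.70 (adjusted p = 3.04e-07), and Tug1, at 59.7 RPKM in the translatome, stood at -0.02 ± 0.07 (adjusted p = 0.815). In kidney 4 of 14 rows were lower, Meg3, Rian, Mirg and Kcnq1ot1, and 2 were higher, Tug1 and Peg13, against 15.8% and 14.9% of all rows. The list's median was -0.71 in brain and -0.90 in kidney. Of 13 cytoplasmic or host-gene long noncoding RNAs, 4 were lower and 5 higher in brain, with a median of -0.03; Snhg1 rose by 0.80 and Snhg11 fell by 6.82. Among the 7 listed small nuclear or nucleolar RNA genes, 4 could be tested in brain, with a median of -2.70, and Rnu73b came nearest to the threshold there (-3.97 ± 0.85, adjusted p = 0.00111).

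The mRNAs of proteins that share nuclear bodies with the members were also read. Of 7 nuclear speckle protein genes, 5 were lower and 1 higher in the translatome of each organ (all rows: 18.5% lower and 18.6% higher in brain, 15.8% and 14.9% in kidney), with medians of -0.61 in brain and -0.78 in kidney. Son and Srrm2, large scaffold proteins of speckles, fell by 1.83 and 1.81 in brain and by 0.89 and 1.11 in kidney, and Rnps1, a splicing coactivator, rose by 0.70 and 0.47. Of 9 paraspeckle protein genes, 4 were higher and 1 lower in the brain translatome, against 18.6% and 18.5% of all rows, whereas 7 were lower in the kidney translatome, against 15.8%. Pspc1, Nono and Sfpq rose by 1.10, 0.60 and 0.40 in brain, and Nono and Sfpq fell by 0.39 and 0.54 in kidney. The organ ratio differed in 7 of these 9 genes, all higher in brain, against 2.35% of all rows. Among the partner genes of Miat, Sox2ot and Rmst, Sf1 (-0.29), Qk (-0.47) and Hnrnpa2b1 (-0.58) were lower in the brain translatome, and Celf3 (-0.09) and Sox2 (0.17) were not called.

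Residual signal in cell-type TRAP was read against both whole-organ groups. No library was a pull-down without tagged ribosomes. Bound RNA and background RNA therefore cannot be told apart in the remaining level of a depleted RNA, in any pull-down. In brain EC all 5 members were below the brain transcriptome, against 24.3% of 19522 rows called lower, with a median log2 fold change of -3.14 over the members and -0.06 over all rows. Against the brain translatome, 2 members were lower, Sox2ot and Rmst, against 21.4% of 19103 rows (24.8% were higher), and the other 3 did not pass the test. Against the transcriptome the log2 fold changes were -4.58 for Malat1, -3.14 for Neat1, -5.39 for Miat, -1.75 for Sox2ot and -1.61 for Rmst.

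Malat1 was at 1.99, 2.32 and 1.79 RPKM in brain EC, a range that overlapped that of the brain translatome (1.58 to 2.14 RPKM). The log2 fold change against the translatome was 0.45 ± 0.13 (adjusted p = 0.00783, not called), and it was 0.15 (adjusted p = 0.316) with total counts. Miat was at 4.04, 6.03 and 3.61 RPKM, around the 3.98 to 4.56 RPKM of the translatome. Its log2 fold change was 0.41 ± 0.15 (adjusted p = 0.0323, not called). The 95% intervals, from 0.20 to 0.70 for Malat1 and from 0.11 to 0.71 for Miat, lay above 0. Of the transcriptome RPKM, which carries no composition correction, 3.30% ± 0.44 of Malat1 and 1.89% ± 0.53 of Miat was left. Neat1 was higher, at 0.370, 0.331 and 0.312 RPKM against 0.144 to 0.234 RPKM, with no overlap. Its log2 fold change of 1.11 ± 0.24 missed the threshold (adjusted p = 0.00123), passed it in a single fit of all 21 libraries (adjusted p = 0.000459) and was 0.82 with total counts (adjusted p = 0.00946).

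Sox2ot fell to 6.30, 6.41 and 6.05 RPKM in brain EC, all well below the 24.6 to 26.5 RPKM of the translatome (log2 fold change -1.73 ± 0.07, adjusted p = 1.76e-10, 3.33-fold lower). Rmst fell to 0.924, 1.05 and 0.875 RPKM from 3.91 to 4.71 RPKM (-1.88 ± 0.13, adjusted p = 2.29e-08, 3.68-fold lower). Relative to total RNA, 23.6% ± 0.71 of Sox2ot and 25.9% ± 2.43 of Rmst was left. Among neural markers in these libraries, the median share was 21.5% over 7 neuron markers (17.1% to 58.8%), 18.0% over 6 ventral telencephalon markers (13.8% to 39.2%) and 21.5% over 5 dorsal telencephalon markers (12.0% to 31.9%). Over 6 neural progenitor markers it was 25.8%, from 18.75% for Sox3 to 450.5% for Nes, an intermediate filament gene that was higher in brain EC than in the translatome, while the other 5 were lower. The neuron markers summed to 450 to 559 RPKM in brain EC, 2350 to 2384 in the brain translatome and 2086 to 2177 in the brain transcriptome, none of them at 0, and 6 of 7 were lower in brain EC than in the translatome. What part neuronal RNA carried along in the pull-down had in the levels of Sox2ot and Rmst was not tested.

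**Figure D4:**
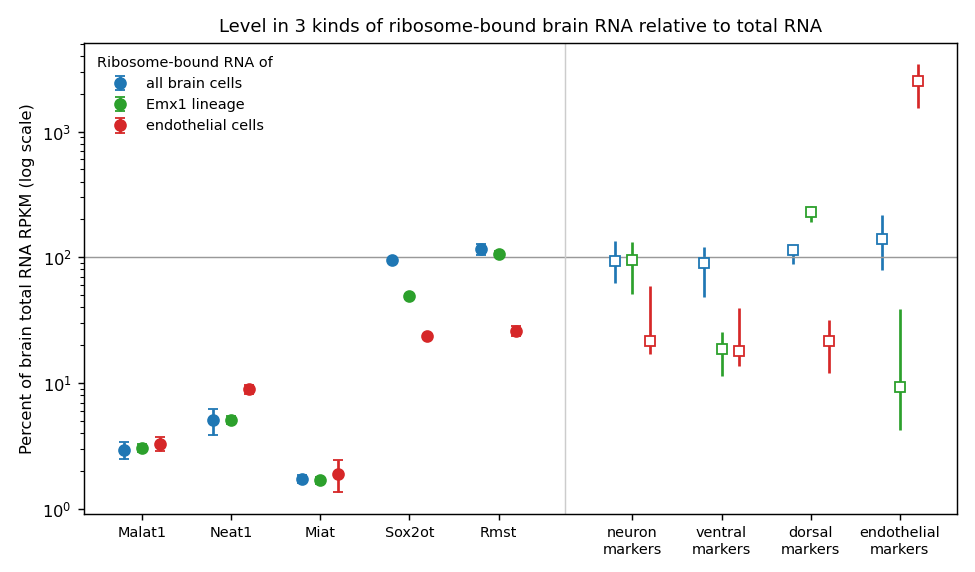
Level in ribosome-bound RNA of all brain cells, the Emx1 lineage and endothelial cells as percent of the mean brain transcriptome RPKM (log scale). Filled points are members with the SD of 3 libraries, open squares are medians of marker lists with lines from the lowest to the highest gene. Malat1, Neat1 and Miat lie between 1.69% and 8.95% in each pull-down, while Sox2ot and Rmst in endothelial cells lie at 23.6% and 25.9%, within the range of the neuron markers.

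The Emx1-lineage separated Sox2ot from Rmst. Of the 5 members, 1 was lower than in the brain translatome, against 12.8% of 19006 rows, and 4 were lower than in the transcriptome, against 23.8% of 19471 rows. Sox2ot was at 13.3, 12.3 and 13.3 RPKM, roughly midway between the brain EC and the brain translatome libraries and overlapping neither (-0.91 ± 0.05 against the translatome, adjusted p = 4.28e-09). Rmst was at 3.66, 4.02 and 4.02 RPKM, which overlapped the translatome libraries (-0.08 ± 0.09, adjusted p = 0.505, 95% interval -0.26 to 0.10). Relative to the transcriptome, 48.8% ± 2.09 of Sox2ot and 106.3% ± 5.70 of Rmst was found. The 6 ventral telencephalon markers were all lower than in the translatome, with a median of 18.6% of the transcriptome level, and the 5 dorsal markers were all higher, against 9.2% of all rows, with a median of 231%. Rmst against the transcriptome was not called (0.25 ± 0.13, adjusted p = 0.102), but without transcriptome library 1 it was higher (0.46, adjusted p = 2.22e-04).

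Malat1 in the Emx1-lineage was at 1.79, 2.05 and 1.79 RPKM, Neat1 at 0.202, 0.198 and 0.178 RPKM, and Miat at 4.26, 4.20 and 3.75 RPKM. All 3 ranges overlapped those of the brain translatome, with log2 fold changes of 0.10 ± 0.10, 0.07 ± 0.25 and 0.01 ± 0.07 and adjusted p of 0.481, 0.834 and 0.905. The 95% interval for Miat ran from -0.13 to 0.15 and that for Neat1 from -0.41 to 0.55. The endothelial markers summed to 20.7 to 24.6 RPKM in the Emx1-lineage, against 218.3 to 244 in the brain translatome.

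Kidney EC left a larger trace of Malat1 and Neat1 than brain EC. Malat1 was at 7.47, 7.43 and 6.07 RPKM, above every kidney translatome library, and it was the 1 member higher than in the kidney translatome, against 16.7% of 18940 rows called higher and 15% called lower (0.86 ± 0.12, adjusted p = 1.23e-04). That call ended with total counts (0.49, adjusted p = 0.00437). Neat1 was at 1.33, 1.67 and 1.06 RPKM, overlapping the translatome (0.70 ± 0.22, adjusted p = 0.0169). Against the kidney transcriptome, 3 members were lower, Malat1, Neat1 and Miat, against 18.4% of 19335 rows called lower and 22.7% called higher, and 10.3% ± 1.18 of Malat1, 14.8% ± 3.35 of Neat1 and 9.29% ± 2.29 of Miat was left. Miat was at 0.0672, 0.0736 and 0.0446 RPKM, close to kidney translatome library 3 and below libraries 1 and 2. Rmst was at 0.151, 0.0796 and 0.127 RPKM from 7 to 18 reads, below every library of both whole-kidney groups, but passed the threshold in neither comparison (adjusted p = 0.00291 against the translatome and 0.00377 against the transcriptome).

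Between the endothelial groups, 2 members were lower in brain EC than in kidney EC, against 16.9% of 19238 rows, and 3 were higher, against 20.1%. Malat1 was 3.34-fold and Neat1 3.86-fold lower in brain EC (adjusted p = 2.44e-07 and 7.67e-06). The whole-organ translatomes were apart in the same direction, a difference not tested by itself. Their mean RPKM was 1.82 in brain and 4.94 in kidney for Malat1, and 0.19 and 1.06 for Neat1. In total RNA, Malat1 was 1.03-fold higher in brain (not called) and Neat1 2.12-fold lower. Miat, Sox2ot and Rmst were higher in brain EC, Miat by 76.4-fold (adjusted p = 7.20e-09) and Rmst by 7.96-fold (adjusted p = 1.80e-06). Sox2ot had 988 to 1129 reads in each brain EC library and 0, 0 and 4 reads in the kidney EC libraries. Total counts in place of TMM moved the median of all rows to -0.30 and -0.40 in brain EC against the brain translatome and transcriptome and to -0.41 and -0.53 in kidney EC against those of kidney. The share of higher among called rows then went from 53.7% to 36.1% and from 52.4% to 35.4% in brain EC, from 52.7% to 21.7% and from 55.3% to 24.7% in kidney EC, and from 41.7% to 29.9% and from 51.6% to 39.6% in the Emx1-lineage.

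Ordered by level, Malat1 was highest in kidney and brain total RNA, which overlapped, then in kidney EC, the kidney translatome and last the 3 brain pull-downs, which overlapped pairwise in that order. Neat1 followed the same order except that kidney EC and the kidney translatome overlapped, kidney total RNA lay above brain total RNA and brain EC above the other brain pull-downs. Sox2ot was highest in brain total and ribosome-bound RNA, which overlapped, then in the Emx1-lineage and in brain EC. Rmst was highest in the brain translatome, the Emx1-lineage and brain total RNA, whose neighbours overlapped. Miat was highest in brain total RNA, far above the 3 brain pull-downs, which overlapped each with the next. Over the 21 libraries, Pearson's r of log2(RPKM + 1) was 0.959 for Malat1 with Neat1 and 0.931 for Sox2ot with Rmst, but 0.373 for Malat1 with Miat. The libraries share organs and depth, so these values describe the set of samples.

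The rows most like each member over the 21 libraries were found by the same measure among 14558 rows. This measure does not take in the size of a change, so a row can rank high with a much smaller drop. For Malat1 they were Fam21 (r = 0.989), Gbf1 (0.988) and Man2c1 (0.987), mRNAs that also stood lower in ribosome-bound RNA: Fam21 was at 28.8 RPKM in the brain transcriptome and 8.35 in the translatome. For Neat1 they were Txlna (0.992), 6030458C11Rik (0.982) and Rpap1 (0.982), of which Txlna was at 41.6 RPKM in the brain transcriptome and 25.9 in the translatome. For Miat they were Kcnt1 (0.989), Ccdc108 (0.985) and Ccdc37 (0.983), of which Kcnt1 fell from 4.97 to 1.04 RPKM between the brain groups' means. For Sox2ot they included Tmem130 (0.998) and Hrh3 (0.998); Tmem130 was at 63.35 RPKM in the brain transcriptome, 73.5 in the translatome, 26.4 in the Emx1-lineage and 11.8 in brain EC. For Rmst they were Ica1l, Cdkl4 and Fbxo44 (0.988 each).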

How the data were processed

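RNA sequencing of 21 libraries (7 groups of 3) was analysed. Per the labels, organs were homogenized, the extract was cleared by centrifugation, and RNA was purified from it directly (transcriptome) or after immunoprecipitation (translatome), so RNA in pelleted nuclei could be missing from both. Libraries were made with the TruSeq RNA kit v2, which selects poly(A) RNA and does not keep the strand. The authors mapped reads with RUM 2.04 to GRCm38 and summarised them with rpkmforgenes on refGene genes. The deposited read counts are not normalized, and the deposited RPKM values were computed by the authors from them.

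Counts per library ranged from 21760652 to 79231692. Tests were made by edgeR (version 4.0.16 under R 4.3.3; glmQLFit and glmQLFTest after TMM) in 10 pairwise comparisons on their own 6 samples and in 1 interaction on 12, on every row counted at least 1 time in its samples. Benjamini-Hochberg adjustment covered all tested rows, and calls needed an adjusted p under 0.001; SE is the fold change over the square root of F. The test was checked on simulated data. Alternatives were DESeq2 1.42.0, RLE factors, total counts, at least 10 counts in 3 samples, a single fit of 21 samples, a replicate block, leaving out each library, an adjusted p under 0.05, log2 ratios of mean RPKM with a pseudocount of 0.1, and CPM. Same-numbered transcriptome and translatome libraries came from the same tissue sample per the study's sample list, and their deviations from the group means correlated (r from 0.494 to 0.646 in brain and 0.682 to 0.724 in kidney). Brain EC and kidney EC libraries of the same number also correlated (0.171 to 0.380). Replicates are separate tissue pools; p-values measure the spread between them. Counting intervals cover counting error only. The members, lists and markers were chosen with earlier results of these data known. The genes named are the 5 members, examples from those lists, rows that overlap a member, and for each member the 3 rows with the highest correlation; some items are not reported here. Figures were drawn with matplotlib 3.10.9 in Python 3.11.15. Loci and transcript sequences come from GENCODE M21 on GRCm38.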

Additional observations from a re-analysis of the deposited data

Results flagged for a closer look

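The ratio of ribosome-bound to total RNA differed between brain and kidney, by the interaction test, for 2 members. Both were lower in brain, against 4.12% of 20108 rows called lower. For Malat1 the log2 fold change of translatome over transcriptome was lower in brain than in kidney by -1.29 ± 0.17 (edgeR adjusted p = 6.57e-05), from 2.96% of the transcriptome RPKM in brain and 7.28% in kidney, and all 3 brain translatome libraries were below all 3 kidney ones. For Miat it was lower by -4.96 ± 0.48 (adjusted p = 4.20e-06), from 1.74% in brain and a mean of 53.9% in kidney, where the 3 libraries ran from 8.75% to 100.1%. Translatome library 3, at the low end, was the kidney translatome library that shared a run with kidney libraries only, and the log2 ratio within that run was -3.52, against -5.97 within the brain run, a difference of -2.45 with no test. No group had more than 3 samples, so single libraries were not tested for lying apart.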

How the results depend on the processing

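Over RLE factors, total counts, the filter of 10 counts, the fit of 21 samples, DESeq2, the block, the RPKM ratio and each left-out library, no called member fold change reversed; of 737 alternative values of member fold changes, 702 stayed on their side of the threshold (among them uncalled values that could change sign), 13 came to pass it, 1 no longer did and 21 moved on the RPKM scale, and the cause was not tested. With the replicate block the rows called in kidney went from 3049 lower and 2880 higher to 4860 and 4636 (a fit with infinite prior degrees of freedom), the organ difference went from 829 and 472 to 1978 and 1467 (1581 and 1128 with DESeq2), and the rows higher in the Emx1-lineage than in the translatome from 1749 to 1116 (1164 with at least 10 counts in 3 samples). Beyond Miat in kidney and Neat1 between organs, the block changed no member call. Blocks over numbers that pair nothing are a check only. With total counts, rows called in kidney EC became 5655 lower and 1564 higher against the translatome and 6864 and 2246 against the transcriptome. Leaving out single libraries gave 255 (without brain transcriptome library 3) to 437 rows higher in the organ difference, and a drop of over 1.5 times also without brain transcriptome 1, brain translatome 1, kidney transcriptome 1 or 2 or kidney translatome 2, and 1110 to 1444 in the Emx1-lineage against the translatome, lowest without Emx1 library 2 and then 1 (1138). The members called changed as follows. At an adjusted p under 0.05, 4 were lower in the organ difference, among them Sox2ot, which was at the limit of detection in kidney. At that threshold 3 were higher in brain EC than in the brain translatome, and 2 lower and 2 higher in kidney EC than in the kidney translatome. The shares of all rows at 0.05 are not given here, so these counts have no background to be judged by. At 0.001, 4.12% of all rows were already lower in the organ difference and 24.8% higher in brain EC. In kidney EC 15% were lower and 16.7% higher at 0.001. In brain EC against the translatome, 1 was higher in the fit of 21 samples. In kidney EC against the translatome, 1 was lower with total counts, with DESeq2 and without kidney translatome library 3 (range 0 to 1 over left-out libraries), 2 were lower in the fit of 21 samples, and 0 were higher with total counts. In the Emx1-lineage against the transcriptome, 1 was higher without brain transcriptome library 1 (range 0 to 1). Rmst in kidney EC fell against the transcriptome with DESeq2, total counts and the fit of 21 samples. Depth limits Sox2ot in kidney, Miat and Rmst in kidney EC and Neat1 in the brain pull-downs, each below 100 reads a library. It also limits Rmst (24 to 49 reads) and Neat1 (60 to 88 reads) in the kidney translatome, and Miat and Rmst in some other kidney libraries. The Neat1 row covers only a short part of the gene, so its short and long forms are not told apart.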

Other observations

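Rows within the span of a member were read as well. Mir135a-2 and Mir1251, microRNA genes hosted by Rmst, had 7 and 3 reads over all 21 libraries, and Mir1897, in an exon of Sox2ot, had 0. Sox2 and Sox2ot also stood at different relative levels across the brain pull-downs. The mean of Sox2 was 93.5 RPKM in the Emx1-lineage against 103.7 RPKM in the brain translatome, where Sox2ot was at 13.0 against 25.4 RPKM, and it was at 33.6 RPKM in brain EC. The difference between the Sox2 and Sox2ot changes was not tested.

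Of the 13 cytoplasmic or host-gene long noncoding RNAs, 5 were lower and 2 higher in the kidney translatome, against 15.8% and 14.9% of all rows, with a median log2 fold change of -0.35. H19, an imprinted RNA abundant in embryonic tissues, was at 604.2 RPKM in the kidney translatome and 2302 RPKM in the transcriptome (-1.93 ± 0.09, edgeR adjusted p = 8.43e-08). Its level in the pulled-down RNA thus stood far above that of Malat1 although H19 was depleted. Whether this RNA was bound to ribosomes or background cannot be told. In brain the same RNA fell by 2.45 on the log2 scale (adjusted p = 3.02e-09).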
